A study of Danio rerio with 4 samples.

Results

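The claudin tight junction family was followed here in sorted blood progenitors of zebrafish larvae. The family was taken as every row of the expression table whose symbol begins with cldn, together with the occludin genes oclna and oclnb and the zonula occludens scaffold genes tjp1a, tjp1b, tjp2a, tjp2b and tjp3. This gave 41 of 30838 rows, made up of 32 claudins, 2 claudin domain genes (cldnd1a and cldnd1b), 2 occludins and 5 scaffolds. The rows were taken by name, but the family itself was selected on the difference in TPM between mutant and sibling libraries, since cldnb was already known to be among the largest rises. For that reason the differences between mutant and sibling libraries are given for these genes as a description, without p-values, and nothing is read from how many of them passed the threshold.

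Tight junctions are belts of contact between epithelial or endothelial cells that close the space between neighbouring cells. Claudins are small membrane proteins that polymerise into the strands of the belt, and the mix of claudins in a cell sets whether the strand seals or lets selected ions and water pass. Occludin lies in the same strands, and the zonula occludens proteins tie the strands to the actin cytoskeleton from inside the cell. Blood cells do not form such belts, although single claudins are also transcribed in cells outside epithelia.

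Larvae of the AB strain were dissociated at 4 days post fertilization, and cells in the cd41:eGFP-low gate, which holds blood stem and progenitor cells (HSPCs), were sorted. Both groups carried the cd41:eGFP transgene. The groups were 2 libraries labelled sibling and 2 libraries labelled smu07 mutant, each from about 500 cells whose cDNA was amplified. The gene named in the title is slc20a1b, which encodes a phosphate transporter. The labels call the controls siblings and the design text calls them wild type, so whether heterozygous larvae were among them is not given in the sources used here, nor is the kind of lesion or whether the libraries of a group came from separate clutches. The p-values of the fit across genes therefore measure the spread between these libraries, which may be technical. At least 24480164 and 25955968 reads stood behind the sibling libraries and at least 27570271 and 29253615 behind the mutant libraries, and 19528 to 23978 rows were above 0. Intervals and limits from reads cover counting error alone, since amplified reads are not independent molecules. The slc20a1b transcript stood at 39.3 and 42.4 TPM (a transcript level scaled by gene length and library total) in sibling libraries against 49.3 and 53.8 TPM in mutant libraries, which cannot check labels for a lesion of unknown kind. The gate transcript itga2b (cd41) was at 50.8 and 66.9 TPM in sibling libraries against 23.5 and 19.3 TPM in mutant libraries. The progenitor genes myb and runx1 were above 7 TPM in all 4 libraries. The groups overlapped for myb, while runx1 stood at 8.10 and 7.10 TPM in siblings against 15.7 and 14.6 TPM in mutants. Lower in both mutants were the progenitor genes lmo2 (159 and 165 TPM against 105 and 122 TPM) and tal1 (136 and 154 TPM against 65.2 and 67.4 TPM). Whether the libraries held equal shares of progenitors was not tested. A gene is called higher or lower below where limma, a linear model fitted to all 12073 genes tested, gave a Benjamini-Hochberg adjusted p under 0.05.

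The total of claudin transcript was similar in 3 of the 4 libraries, whereas its makeup differed between the groups. The 32 claudins summed to 120 and 125 TPM in the sibling libraries, 196 TPM in mutant replicate 1 and 122 TPM in mutant replicate 2. Mutant replicate 1 thus stood above the other libraries, and mutant replicate 2 fell between the siblings. In the siblings cldng, a claudin that RefSeq also lists as a claudin 5-like gene, was the most abundant, with 57.5% and 59.7% of the claudin sum. Together with cldn5b and cldn12 it made up 87.2% and 84.2% of the sum. In the mutants cldnb was the most abundant, with 54.0% and 41.3% of the sum, and the share of cldng was 13.1% and 18.3%. Without cldnb, cldnh and cldnc, the remaining claudins summed to 120 TPM in each sibling library and to 69.1 and 60.5 TPM in the mutant libraries. In bulk libraries fewer cells of a type and less RNA per cell cannot be told apart, for these and for all values that follow.

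**Figure D1:**
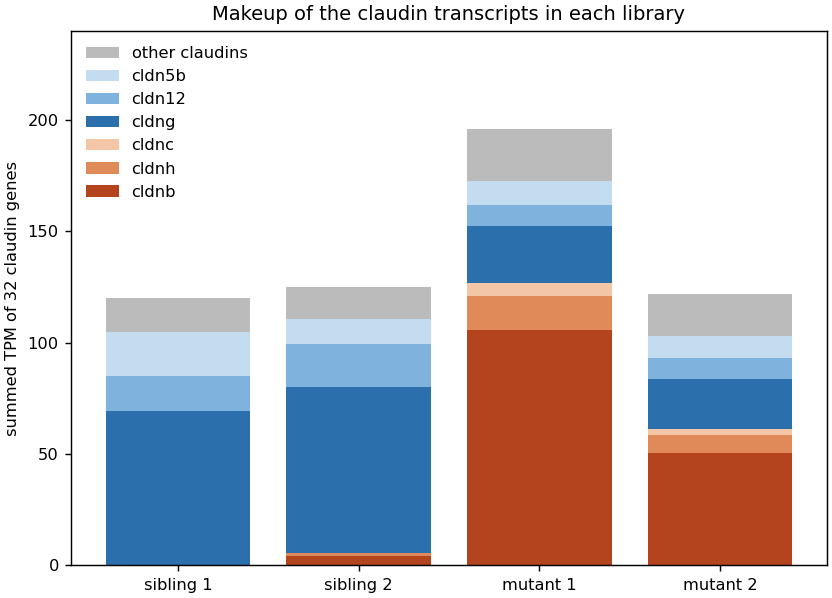
Summed TPM of the 32 claudin genes in each library (vertical axis, linear, from 0), 1 stacked bar per library with no error since each bar is 1 library. Blue shades are cldng, cldn12 and cldn5b, the main claudins of the siblings, orange shades are cldnb, cldnh and cldnc, and the bars reach 120, 125, 196 and 122 TPM.

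The family's largest difference was that of cldnb, a claudin of zebrafish skin and of the migrating lateral line primordium. It was listed at 0 in sibling replicate 1, at 3.95 TPM (at least 83 reads) in sibling replicate 2, at 106 TPM (at least 2499 reads) in mutant replicate 1 and at 50.3 TPM (at least 1256 reads) in mutant replicate 2. Both mutant libraries were above both siblings, the siblings differed from each other, and mutant replicate 1 was 2.1 times mutant replicate 2. The 0 in sibling replicate 1 allows a level of up to 0.150 TPM (3 reads). Within its library cldnb exceeded 96.2% and 92.8% of the detected rows in the mutants and 59.5% in sibling replicate 2. On the scale of log2(TPM + 1), on which low genes change by less than their true fold, the mutant libraries were 5.05 higher (SE 0.75). Because the siblings were unequal, that difference was 3.90 without sibling replicate 1 and 6.21 without sibling replicate 2.

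The claudin genes on one side of cldnb were also higher. In the RefSeq annotation of the GRCz12tu assembly, used for gene order alone, cldnh, cldnc and cldnb are the first 3 genes of an unbroken run of 7 claudin genes. RefSeq lists cldnh and cldnc as cldn3c and cldn3d, relatives of claudin 3. The cldnh transcript was listed at 0 and stood at 1.27 TPM in sibling libraries against 15.4 and 8.16 TPM in mutant libraries (log2 difference 3.02, SE 0.46). The unequal siblings again moved this value, to 2.43 without sibling replicate 1 and 3.62 without sibling replicate 2. The cldnc transcript was listed at 0 in both siblings and stood at 5.62 TPM (at least 217 reads) and 2.79 TPM (at least 114 reads) in the mutants. Against the level that 3 reads per sibling library would give, its mutant mean was at least 46.9-fold higher. All 3 genes had the same order of libraries within the mutants, with ratios of mutant replicate 1 to mutant replicate 2 of 2.1, 1.89 and 2.01 for cldnb, cldnh and cldnc.

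The claudin genes on the other side of cldnb were at or near 0. Of these, cldnd and zgc:136892 (RefSeq cldn30) were at 0 in both siblings and in mutant replicate 1 and at 0.0598 and 0.0226 TPM in mutant replicate 2, and zgc:112437 (cldn29) was listed at 0 in all 4 libraries. The gene cldn28 of this run had no row under that name. The flanking gene abhd11 was at 2.69 and 2.55 TPM in sibling libraries against 3.61 and 3.60 TPM in mutant libraries. The gene on the other flank, mettl27, was at 1.76 TPM in sibling replicate 1 and listed at 0 elsewhere. Counting could split reads between neighbouring claudin genes if they are alike. Their sequences were not compared here, so the values of single genes in the run carry that uncertainty.

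A second run, cldnj, cldne, cldnf and cldna, had low levels in all libraries. The cldnf transcript was listed at 0 in both siblings and stood at 1.14 and 0.528 TPM in mutants, at least 9.08-fold higher than the level of 3 reads per sibling library. The cldne transcript was at 0.378 and 0 TPM in sibling libraries against 0.788 and 0.606 TPM in mutant libraries, and cldna was at 0 in both siblings and at 0.0258 and 0.171 TPM in mutants. The mutants were thus above the siblings for these 3 genes. The remaining gene, cldnj, which zebrafish need for otolith formation in the ear, was listed at 0 throughout.

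**Figure D2:**
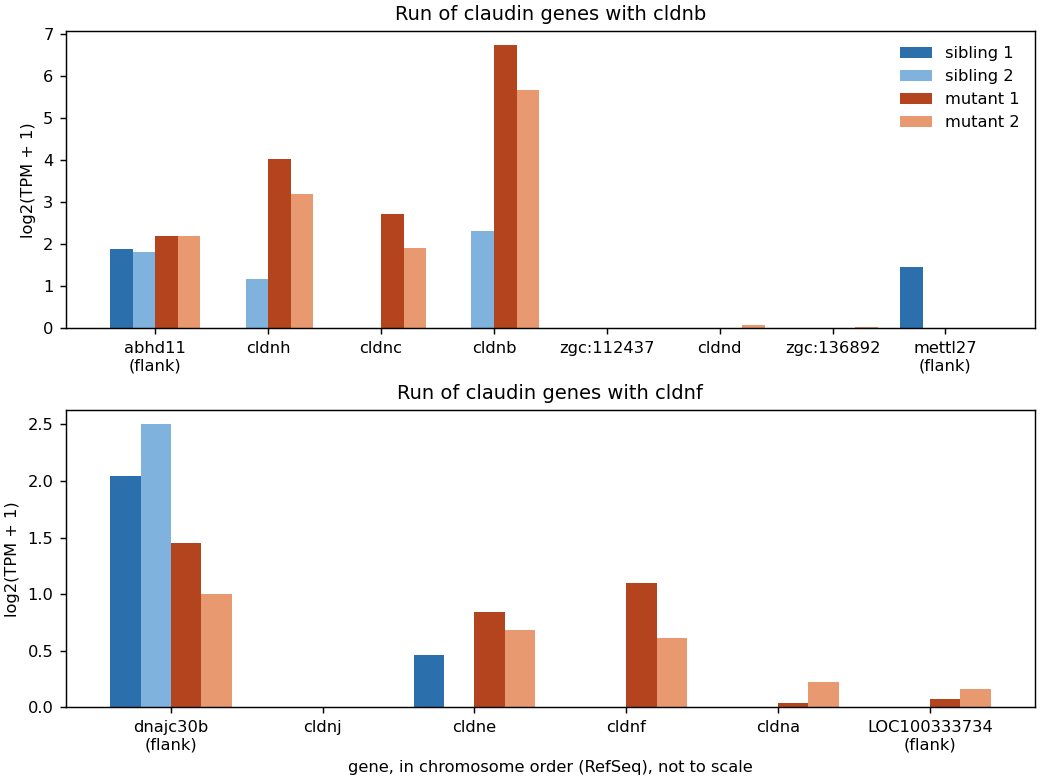
Levels in the 2 runs of neighbouring claudin genes and their flanking genes, as log2(TPM + 1) in each library (bars, 1 per library, from 0), in chromosome order and not to scale; the panels have different vertical ranges. In the upper panel cldnh, cldnc and cldnb are high in the mutant libraries while the other claudins are at or near 0, and in the lower panel no claudin exceeds 1.14 TPM.

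Outside these runs cldn1, cldn10b and tjp3 were higher in the mutant libraries. Mammalian claudin 1 seals the skin against water loss, and cldn1 was listed at 0 in both siblings and stood at 3.49 TPM (at least 13 reads) and 1.78 TPM (at least 7 reads) in the mutants. Its mutant mean was at least 2.83-fold above the level of 3 reads per sibling library, and the log2 difference was 1.82 (SE 0.30). Mammalian claudin 10 forms ion-selective pores. In these libraries cldn10b stood at 1.18 and 0.843 TPM in sibling libraries against 5.43 and 3.25 TPM in mutant libraries, with means of 1.01 ± 0.237 and 4.34 ± 1.54 TPM (SD, n = 2 per group). This is 4.30-fold between the means, and the log2 difference was 1.38 (SE 0.27). RefSeq places cldn10b beside the related gene cldn10l2, which had no row under that name. The scaffold gene tjp3, needed for the skin barrier of zebrafish embryos, stood at 0.339 and 0.405 TPM in sibling libraries against 1.89 and 1.51 TPM in mutant libraries (log2 difference 0.97, SE 0.23). No library of one group reached the range of the other for these 3 genes.

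Of the 3 main claudins of the sibling libraries, cldng and cldn12 were called lower in the mutants, and cldn5b, given further on, was not called. The cldng transcript stood at 69.1 and 74.7 TPM in sibling libraries against 25.6 and 22.3 TPM in mutant libraries, and the means of 71.9 ± 3.99 and 24.0 ± 2.32 TPM (SD, n = 2 per group) differed 3.00-fold. Its log2 difference was -1.55 (SE 0.13), and leaving out any 1 library kept it between -1.64 and -1.45. The cldn12 transcript, whose mammalian relative is implicated in calcium uptake in the gut, stood at 15.7 and 19.6 TPM in sibling libraries against 9.54 and 9.43 TPM in mutant libraries (log2 difference -0.82, SE 0.17). The mutant libraries lay close together for both genes, and the groups did not overlap.

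The proportionally largest fall was that of cldn11b, whose mammalian relative builds the strands of myelin and of the testis barrier. It stood at 4.85 and 5.20 TPM (at least 212 and 238 reads) in sibling libraries against 0.717 and 0.605 TPM (at least 37 and 33 reads) in the mutants. The means differed 7.60-fold and the log2 difference was -1.86 (SE 0.20). Its paralog cldn11a was listed at 0 in all libraries. The claudin domain gene cldnd1a, which encodes a claudin-like membrane protein, stood at 5.88 and 6.61 TPM in sibling libraries against 1.53 and 1.39 TPM in mutant libraries, 4.27-fold between the means (log2 difference -1.55, SE 0.19). Its paralog cldnd1b did not follow it, with 1.25 and 4.73 TPM in sibling libraries against 3.11 and 1.56 TPM in mutant libraries, so that the groups overlapped.

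The zonula occludens scaffolds moved in different directions. The tjp2a transcript stood at 3.72 and 2.96 TPM in sibling libraries against 0.919 and 1.39 TPM in mutant libraries, 2.90-fold between the means (log2 difference -1.01, SE 0.23). Its paralog tjp2b stood at 5.98 and 3.00 TPM in sibling libraries against 4.08 and 3.35 TPM in mutant libraries, with overlapping groups (log2 difference -0.17, SE 0.30). As given above, tjp3 was higher in both mutant libraries. The remaining scaffolds, tjp1a and tjp1b, stayed at or below 1.33 TPM with overlapping groups.

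The claudins cldn5b, cldn5a and cldn15b and the main occludin gene, oclna, were not called. The cldn5b transcript, whose mammalian relative is the principal claudin of blood vessels, stood at 19.9 and 11.1 TPM in sibling libraries against 10.96 and 10.04 TPM in mutant libraries (log2 difference -0.47, SE 0.27). The mutants lay below both siblings, but by less than the siblings differed from each other, and cldn5b was called lower without sibling replicate 2. The cldn5a transcript, which in zebrafish serves the barrier around the brain ventricles, stood at 3.78 and 5.71 TPM against 5.45 and 5.34 TPM. The occludin gene oclna was at 7.57 and 12.5 TPM in sibling libraries against 8.92 and 7.62 TPM in mutant libraries, and cldn15b, related to the cation pore of the gut, was at 2.62 and 1.96 TPM against 2.42 and 2.45 TPM. The groups overlapped for these last 3 genes, and their log2 differences of 0.17 (SE 0.22), -0.22 (SE 0.25) and 0.07 (SE 0.22) were no larger than their standard errors. Without sibling replicate 1, oclna and cldnd1b were called lower.

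**Figure D3:**
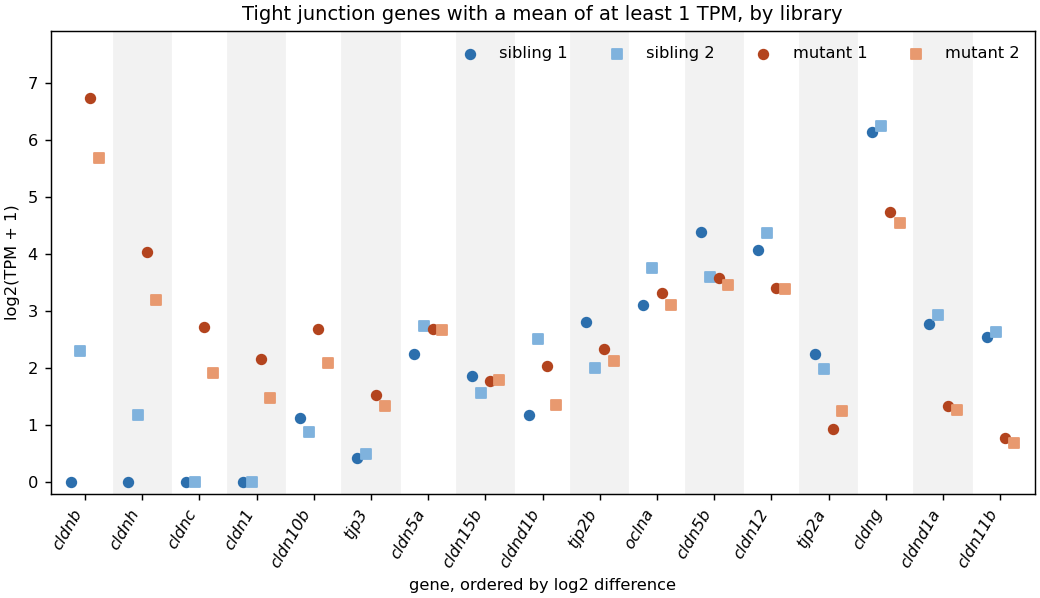
Level of each of the 17 family genes whose mean reached 1 TPM, as log2(TPM + 1) on the vertical axis, with 1 point per library and genes ordered by their difference. From cldnb to tjp3 both mutant points lie above both sibling points, from cldn12 to cldn11b both lie below, and of the 6 genes between them only cldn5b has groups that do not overlap.

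In counts, 36 of the 41 genes were above 0 in at least 1 library, and 17 reached the mean of 1 TPM over all 4 libraries that the test required. The limit fell between tjp3, with a mean of 1.04 TPM, and tjp1b, with a mean of 0.99 TPM. In the limma fit over 12073 genes, 6 of the 17 were called higher in the mutants (cldnb, cldnh, cldnc, cldn1, cldn10b and tjp3), where 9.91% of all genes tested were called higher. Another 5 were called lower (cldng, cldn12, cldn11b, cldnd1a and tjp2a), where 18.6% of all genes were, and in either direction 28.5% of all genes were called. Lower calls were 65.3% of all calls, and 44.7% under median-of-ratios scaling, under which all 11 family calls kept their direction. Groups that did not overlap were found in 6 genes in each direction, against 26.0% of all genes tested with higher and 44.0% with lower mutant values. The median log2 difference was -0.15 over the 17 genes and -0.14 over all genes tested. Since 5 of the 17 (cldn1, cldnh, cldnc, tjp3 and cldn11b) reached the required mean through the group in which they were high, these counts are no support for a change of the family. All 11 calls rested on having both mutant libraries: without either one they were lost, as were nearly all calls of the whole table. The 11 differences kept their direction in each of the 13 alternatives that tested them. As the groups of all 11 genes did not overlap, only the 2 other scalings and voom could have reversed a direction. With no filter on low values the calls of cldnb, cldnh, cldn10b, tjp3, cldn12 and tjp2a were lost.

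**Figure D4:**
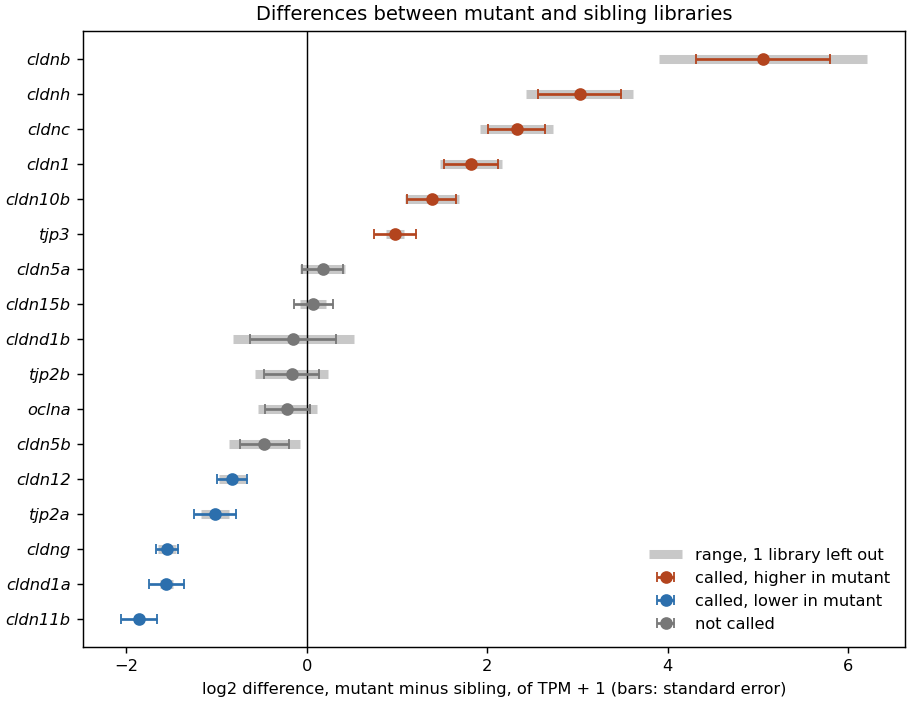
Log2 difference between mutant and sibling libraries of TPM + 1 for the same 17 genes (points), with the standard error of the limma fit (thin bars) and the range when 1 library is left out (grey bars). The called genes lie from -1.86 to -0.82 and from 0.97 to 5.05, and the grey bar is widest for cldnb, from 3.90 to 6.21.

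Below the required mean, 19 family genes were above 0, and their highest value in any library ranged from 0.0455 to 1.79 TPM. In 7 of them (cldni, oclnb, cldn19, cldne, cldnf, cldna and cldn2) both mutant libraries were above both siblings, in 0 both were below, and in 12 the groups overlapped or tied. Over the whole family 13 genes were higher and 6 lower without overlap, against 35.0% and 25.5% of all rows above 0. The second occludin gene, oclnb, stood at 0.255 and 0.243 TPM in sibling libraries against 0.648 and 0.724 TPM in mutant libraries. The cldn19 transcript, whose mammalian relative serves magnesium retention in the kidney, was at 0.0202 and 0 TPM against 0.231 and 0.292 TPM, and cldni was at 0.0333 and 0.0477 TPM against 0.226 and 0.320 TPM. For cldn2, a water and cation pore in the mammalian kidney, the values were 0.217 and 0.0259 TPM against 0.299 and 0.392 TPM. The highest untested value was that of cldn15a, at 0.965 and 0.132 TPM in sibling libraries against 1.79 and 0.589 TPM in mutant libraries. With no filter on low values, 3 family genes were called higher (cldn1, cldnc and cldn19) and 3 lower (cldng, cldn11b and cldnd1a), where 5.06% and 4.31% of 26105 genes were called. Some of these genes rested on few reads, with at least 1 and 7 in the mutants for cldna. Others rested on more, with at least 2 and 0 reads in siblings against 27 and 36 in mutants for cldn19. Detection was broader in the mutants for the table as a whole. Above 0 were 26 and 25 of the 41 family genes in sibling libraries against 33 and 35 in mutant libraries. These are 63.4%, 61.0%, 80.5% and 85.4%, against 63.3%, 64.2%, 77.4% and 77.8% of all rows. Besides cldnj and cldn11a, the genes listed at 0 in every library were cldn7b, cldn10a and cldn17.

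The higher family genes also differed between the mutant libraries. For cldnb, cldnh, cldnc, cldn1 and cldn10b the level in mutant replicate 1 was 2.1, 1.89, 2.01, 1.96 and 1.67 times that in mutant replicate 2, and for tjp3 it was 1.25 times. Ratios of at least 1.5 thus occurred in 5 of the 6 genes called higher, and in 4.33% of all genes tested and 7.02% of all genes called higher. They also occurred in 75% of the 12 skin, ionocyte and gut markers called higher and in 57.1% of the 7 keratinocyte markers called higher. The 5 genes called lower had ratios of 1.15 for cldng, 1.01 for cldn12, 1.18 for cldn11b, 1.1 for cldnd1a and 0.66 for tjp2a, and among the uncalled genes cldnd1b had 1.99. The genes share 2 libraries and are not independent of each other, so these ratios are a description.

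**Figure D5:**
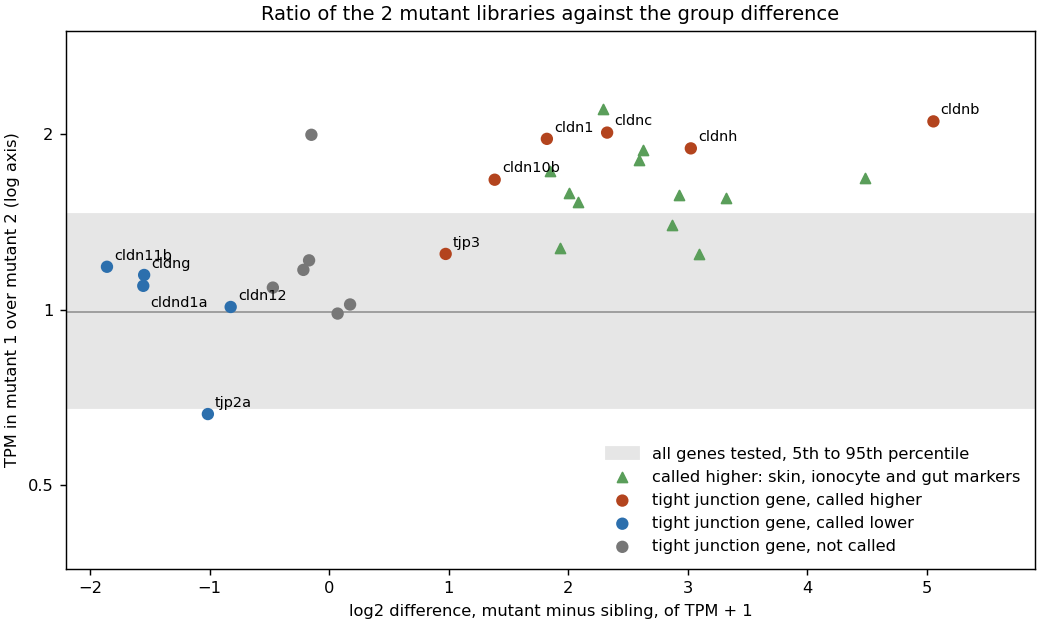
TPM in mutant replicate 1 over mutant replicate 2 (vertical log axis) against the log2 difference between mutant and sibling libraries, for the 17 family genes (circles) and 12 skin, ionocyte and gut markers that were called higher (triangles). The grey band spans the 5th to 95th percentile of all genes tested, 0.68 to 1.46; cldnb, cldnc, cldn1, cldnh and cldn10b lie above it with ratios of 1.67 to 2.1, as does the uncalled cldnd1b, tjp2a lies just below it, and the markers lie between 1.24 and 2.21.

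Several keratinocyte genes were higher in the same mutant libraries. Of 19 keratinocyte markers with a row, which cover outer and basal skin cells, 10 were tested, 7 were called higher and 0 lower, and the summed level was 112 and 120 TPM in sibling libraries against 339 and 233 TPM in mutant libraries. The keratin gene krt91 was listed at 0 in both siblings and stood at 27.6 and 16.4 TPM in mutants, and the keratin genes cyt1 and krt4 rose by 3.32 and 2.92 on the log2(TPM + 1) scale (SE 0.36 and 0.49, limma adjusted p = 0.00551 and 0.0120). The marker with the highest mean over the 4 libraries, icn, was at 43.2 and 27.6 TPM against 179 and 113 TPM. With no filter on low values the calls of krt4, icn2 and krt17 were lost. The icn2 call was also lost with a pseudocount of 0.1. The siblings were unequal for cyt1, at 0.123 and 1.06 TPM, and for krt4, at 0.0341 and 1.81 TPM. They were also unequal for cyt1l, at 0 and 1.45 TPM, and for icn2, at 0 and 2.94 TPM. For icn and for krt17, at 0.692 and 0 TPM, sibling replicate 1 was the higher. The 3 tested markers that were not called were krt8, lgals3b and anxa1a, and anxa1a stood at 10.1 and 31.0 TPM against 8.04 and 7.99 TPM, lower in both mutants. The untested krt92 was at 0 and 3.31 TPM against 0 and 0.0320 TPM. Of the other markers, epcam and krt15 were listed at 0 in all libraries, and krt5 and tp63 did not exceed 0.0796 and 0.461 TPM. The red cell genes gata1a and alas2 likewise did not exceed 0.0170 and 0.00962 TPM, beside abundant transcripts of the same lineage. Why these genes were at or near 0 was not tested. As a percentage of the summed keratinocyte level, cldnb was 0% and 3.29% in sibling libraries against 31.2% and 21.6% in mutant libraries. The sibling sums behind it came mainly from icn and the uncalled lgals3b, krt8 and anxa1a. The level of lgals3b was 40.9 and 30.9 TPM in sibling libraries against 38.0 and 33.6 TPM in mutant libraries. That of krt8 was 16.7 and 18.5 TPM against 18.6 and 13.8 TPM. The percentage therefore does not compare cldnb with the called markers alone. The part of skin transcript in the cldnb result was not tested.

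Markers of other epithelia and of blood lineages moved as well. Of 14 skin ionocyte markers 6 were tested, of which 3 were called higher, among them the sodium pump gene atp1a1a.2 at 0.122 and 0.0832 TPM against 7.88 and 4.20 TPM. Another, atp1a1a.1, was called lower, a call lost under both other scalings (limma adjusted p = 0.149 and 0.132). It made up most of the summed ionocyte level of 362 and 362 TPM in sibling libraries against 313 and 300.2 TPM in mutant libraries. Without atp1a1a.1 the direction was the opposite, with sums of 15.9 and 14.0 TPM in sibling libraries against 42.0 and 34.3 TPM in mutant libraries. Of the ionocyte factor genes, foxi3b was listed at 0 in all libraries and foxi3a stood at 0.460 and 2.16 TPM against 1.83 and 1.08 TPM. Of 10 intestinal markers 3 were tested and 2 were called higher, tm4sf4 and the cadherin gene cdh17, with a summed level of 3.05 and 2.09 TPM against 14.8 and 9.35 TPM, and fabp2 was listed at 0 throughout. The gene cdh17 also marks the pronephros, where it was the 1 gene called of 2 tested and the 11 markers summed to 6.38 and 4.30 TPM against 12.8 and 9.13 TPM. Beside the lower claudins, the 9 genes listed as thrombocyte markers summed to 2126 and 1967 TPM in sibling libraries against 961 and 1111 TPM in mutant libraries (5 called lower, 1 higher). Without blf, the most abundant in each library, they summed to 490 and 553 TPM against 407 and 356 TPM. In which cells blf was transcribed was not tested, so its fall is not read as that of a thrombocyte gene. The 10 red cell markers summed to 1498 and 973 TPM against 391 and 512 TPM (6 of 8 tested called lower, 0 higher), with the hemoglobin gene hbbe1.1 at 768 TPM in sibling replicate 1 and at 231 TPM or less in the other libraries. Under both other scalings the calls of mpl among the thrombocyte genes and of hbbe1.1 and klf1 among the red cell genes were lost (limma adjusted p from 0.0531 to 0.0897). The 16 macrophage markers summed to 952 and 1002 TPM against 1853 and 1762 TPM (8 of 12 tested called higher, 0 lower). Among the uncalled ones cd74a was lower in both mutants, at 56.8 and 29.4 TPM against 21.7 and 22.8 TPM. So was grn1, at 1.72 and 3.57 TPM against 1.49 and 0.970 TPM. The macrophage genes mpeg1.1 and c1qb did not exceed 0.0455 and 0.0299 TPM, and c1qa and c1qc were listed at 0 in all libraries. Beside cldn5b, the 13 endothelial markers summed to 229 and 199 TPM against 156 and 165 TPM, and of 6 tested, pecam1 and stab1 were called higher, sele and aqp1a.1 lower, and tek and fli1a neither. The tek transcript stood at 5.12 and 2.58 TPM against 6.74 and 4.90 TPM, kdrl and cdh5 did not exceed 0.0588 and 0.0436 TPM, and flt1 was listed at 0. These endothelial markers thus had no common direction or level. Among the markers of this paragraph, dropping the filter on low values ended the calls of atp1a1a.4, cdh17, marco, pecam1, aqp1a.1, mpl, hbbe1.1 and klf1. The part of each of these cell types in the claudin levels was not tested.

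Other tight junction genes were also called in both directions. Of 27 such genes with a row, 12 were tested, of which 3 were called higher, 2 lower and 7 neither, with a median log2 difference of 0.16. The genes ildr1a and ildr1b, whose products mark the corners where 3 cells meet, rose by 1.76 and 0.95 on the log2(TPM + 1) scale (SE 0.31 and 0.22, limma adjusted p = 0.0135 and 0.0270). The levels of ildr1a were 0 and 0.171 TPM in sibling libraries against 3.70 and 1.84 TPM in mutant libraries, with a ratio of 2.01 between the mutant libraries. The angiomotin-like gene amotl2a rose from 7.70 ± 3.00 to 17.9 ± 2.82 TPM (SD, n = 2 per group, limma adjusted p = 0.0266). Lower in the mutants was marveld1, at 69.0 and 79.1 TPM against 42.1 and 45.2 TPM (a log2 difference of -0.75 with an SE of 0.12, limma adjusted p = 0.0111). Whether the marveld1 product lies in tight junctions was not tested. The junctional adhesion molecule gene jam2a was at 56.2 and 52.7 TPM against 39.8 and 39.4 TPM (a log2 difference of -0.45 with an SE of 0.11, limma adjusted p = 0.0310). The jam2a call was lost under both other scalings (limma adjusted p = 0.129 and 0.257), and that of ildr1b under quantile normalization (limma adjusted p = 0.0593). With no filter on low values the calls of ildr1a, ildr1b and amotl2a were lost (limma adjusted p = 0.0544, 0.0604 and 0.0882). The summed level of the list was 179 and 192 TPM in sibling libraries against 159 and 152 TPM in mutant libraries. Without marveld1, the gene of the list with the highest mean, it was 110 and 113 TPM against 117 and 107 TPM, with overlapping groups.

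Genes of cell polarity and of the neighbouring adhesive junctions held 3 calls. Of 11 tested polarity genes 1 was called higher, the scaffold gene lin7c (limma adjusted p = 0.0462), and 0 lower, with a median log2 difference of 0.20. Besides genes of the Par and Crumbs complexes, the 11 included llgl1, llgl2 and scrib. Of 12 tested adherens junction and desmosome genes 1 was called in each direction, with a median of 0.06. The epithelial cadherin gene cdh1 was higher, at 0.274 and 0.605 TPM in sibling libraries against 2.39 and 1.45 TPM in mutant libraries (log2 difference 1.01, SE 0.28, limma adjusted p = 0.0407), and the desmocollin gene dsc2l was lower, at 2.57 and 2.42 TPM against 1.26 and 0.911 TPM (a log2 difference of -0.75 with an SE of 0.22, limma adjusted p = 0.0496). None of the 3 calls held with no filter on low values (limma adjusted p = 0.0693 for lin7c, 0.0974 for cdh1 and 0.113 for dsc2l). The lin7c call was also lost without sibling replicate 1 (limma adjusted p = 0.0551), that of dsc2l under median-of-ratios scaling (0.0832) and that of cdh1 under quantile normalization (0.0831). Of 4 tested genes on the list of epithelial regulators 0 were called higher and 1 lower, the Krüppel-like factor gene klf17. It was lower by 2.36 on the log2(TPM + 1) scale (SE 0.19, limma adjusted p = 0.00334). In which cells klf17 was transcribed was not tested, so its fall is not read as that of an epithelial gene. The factor gene elf3, not called, stood at 0.209 and 23.5 TPM in sibling libraries against 41.9 and 19.0 TPM in mutant libraries (log2 difference 2.43, SE 1.30), with very unequal siblings and overlapping groups. The protease inhibitor gene spint1a stood at 25.2 and 19.9 TPM in sibling libraries against 22.4 and 21.7 TPM in mutant libraries.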

How the data were processed

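The authors deposited 1 table of TPM values, with 1 column for each of the 4 libraries; FastQC, STAR, featureCounts and DESeq2 with the GRCz11 build are named in the submitters' processing notes, with versions, annotation and strand setting not given in the sources used here. Since TPM divides by gene length and by the library total, it holds no depth, and abundant genes that rise push the rest down. Smallest whole reads were recovered from TPM ratios between libraries for 23927 of 23927 rows above 0 in at least 2 libraries (tolerance 1e-06 reads); a common factor of a row's reads is lost, so reads are minimum values, and 2178 rows above 0 in 1 library were not solved. Genes whose mean reached 1 TPM were tested on the log2(TPM + 1) scale in R 4.3.3 using limma 3.58.1 (eBayes with a trend, group as the only term, Benjamini-Hochberg adjustment over 12073 genes). The method was tested on simulated data. The family, the other gene lists and the rule for named genes (every family gene with a mean of at least 1 TPM, lower ones where a library reaches that level or a relative or neighbour is described, and up to 4 called genes of each other list with its most abundant marker) were chosen with earlier results of these data known. Outside that rule, jam2a, spint1a, elf3, uncalled marker genes, the markers at or near 0 and the progenitor genes were named after their values were seen. All 41 family rows matched RefSeq (GRCz12tu), 37 by symbol and 4 by synonym. Protein and promoter sequences were not used here. Alternatives were 2 other filters, 2 other pseudocounts, 2 other scalings, no trend, voom on the recovered reads, the replicate number as a block and leaving out each library.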

Additional observations from a re-analysis of the deposited data

How the results depend on the processing

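With no filter on low values 1321 genes were called higher and 1124 lower (5.06% and 4.31% of 26105), and 3 family genes were called in each direction. With a mean of at least 5 TPM, 778 genes were called higher and 2195 lower (10.6% and 29.9% of 7337). Of the 7 family genes tested there, 2 were called in each direction. The lower calls numbered 1246 under median-of-ratios scaling (1543 higher) and 1390 under quantile normalization (1329 higher), which makes 44.7% and 51.1% of calls lower against 65.3%; these scalings moved the median log2 difference of all genes by 0.15 and 0.09, and kept 11 and 10 of the 11 family calls in their direction (tjp3 was lost under the latter). Voom on recovered reads kept 11. As 1 library was left out, the genes called ranged from 0 to 2044 higher and 3 to 3206 lower, and the family genes called from 0 to 6 higher and 0 to 7 lower; a lone library was then assumed to vary like the other group. The log2 ratio of the family's summed TPM, 0.24, ranged from -0.11 without mutant replicate 1 to 0.52 without mutant replicate 2. Among uncalled genes the log2 difference changed sign as 1 library was left out, and ranged from -0.82 to 0.52 for cldnd1b (0.19 without mutant replicate 2), from -0.076 to 0.22 for cldn15b, from -0.070 to 0.42 for cldn5a, from -0.57 to 0.23 for tjp2b and from -0.54 to 0.11 for oclna. Same-numbered libraries did not deviate together (r = -0.046 across 12073 genes), so the numbers are not taken as pairs; with the replicate block 981 genes were called higher and 1682 lower, and 5 family genes in each direction. Of 46 called genes of the other lists, 39 remained called with the replicate block, 40 under median-of-ratios scaling, 39 under quantile normalization and 29 once the filter was dropped. Under the block, the calls of ildr1b, jam2a, lin7c, cdh1, dsc2l, pecam1 and mpl were lost (limma adjusted p of 0.0794 for lin7c, 0.0692 for cdh1 and 0.0836 for dsc2l). None of these 46 changed sign, and leaving out either mutant library ended all 46 calls. The groups of all 46 genes did not overlap, so leaving out 1 library could not change a sign. The causes were not tested. Low levels kept the 19 family genes below the required mean out of the test, and 2 libraries per group limit every comparison.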

Other observations

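The table also holds 6 claudin genes under names that do not begin with cldn, matched through RefSeq synonyms. Of these, zgc:110333 (RefSeq cldn8.2) was listed at 0 in both siblings and stood at 1.06 and 0.333 TPM in mutant replicates 1 and 2. It overlaps cldn17 in RefSeq, so reads may be shared. The si:ch211-95j8.2 transcript (cldn23.1) stood at 0.454 and 0.0271 TPM in sibling libraries against 1.49 and 0.841 TPM in mutant libraries. For both genes the mutants were above the siblings and mutant replicate 1 was above mutant replicate 2. The zgc:153311 transcript (cldn33b) was at 0.316 and 0 TPM in sibling libraries against 0.0382 and 0 TPM in mutant libraries, and si:dkey-98f17.3 (cldn26) was listed at 0 in all libraries. The other 2 lie in the run with cldnb. Differences between the groups were not tested for these genes.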
